A study of Homo sapiens with 12 samples.

Results

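Splicing factors and neuronal RNA-binding proteins were followed through cerebral organoids (COs) with and without editing of *c-JUN*. The rule went by symbol and used no measured value, but it and the role groups were set with earlier results of these data known. They comprised every deposited gene of the hnRNP, SRSF, ELAVL, RBFOX, CELF, NOVA, PTBP, MBNL and KHDRBS families, together with *QKI*, *ESRP1*, *MSI1* and *MSI2*. This gave 57 of the 10976 deposited genes. By role there were 20 hnRNP genes, 11 SR protein genes, 11 neuronal-type genes, 5 progenitor-type genes and the epithelial gene *ESRP1*. The other 9, of the CELF, MBNL, KHDRBS and ELAVL families, are called the broad group, although not all of them are broadly expressed. That group holds *CELF2*, which is abundant in brain, and the neuronal-type group holds *RBFOX2*, which is used well beyond neurons. The progenitor-type group was set to take in broad repressors too, and it holds *PTBP3*, which is best known from blood cells. *RBFOX3*, *CELF6*, *ESRP2* and *SRSF12* were not analysed here. The identifiers of all 57 were found in GENCODE release 29 (GRCh38), where each is a protein coding gene.

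RNA-binding proteins decide which exons of a transcript are kept and how long the mRNA lasts. SR proteins mostly favour inclusion of the exons they bind, and hnRNPs often oppose it. In neural progenitors PTBP1 holds back exons that neurons use, including one that PTBP2 needs, and the Musashi proteins (MSI1, MSI2) control translation. As neurons form, PTBP2, the neuronal ELAVL (Hu) proteins, NOVA, RBFOX and the brain-enriched CELF proteins set neuronal splicing and mRNA stability. MBNL proteins drive splicing patterns of mature tissues, and ESRP1 maintains the epithelial splicing program.

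The human embryonic stem cell line H1 gave the WT COs, and KO#2 and KO#10, 2 clones of H1 edited at *c-JUN* by CRISPR-Cas9, gave the KO COs. All lines went through the same neural differentiation and organoid induction. Total RNA of 3 to 4 pooled COs made 1 library, and each line had 2 libraries at day 12 and 2 at day 24. WT was thus represented by 2 libraries and KO by 4 on each day. Each KO line is a single clone, and a clone's own traits and the edit cannot be told apart within that clone. Nothing in the labels says that libraries of a line came from separate inductions, so that the spread between them may be technical.

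The deposited values are whole-number scores, with a median of 17 and a highest value of 5585 in every library. Their sums lay between 473637 and 483149 and say nothing of depth, which is unknown. *JUN* itself was no lower under the KO labels than in WT. Its values of day 24 were 13 and 15 in WT against 39 and 39 in KO#2, 29 and 32 in KO#10 (change 1.25 on the log2 scale, SE 0.17, adjusted *p* = 0.0184). Those of day 12 were 4 and 8 in WT, and 19, 18, 14 and 13 in the KO libraries (change 1.33, adjusted *p* = 0.131). These values do not check the edit, and every direction given for KO rests on the labels.

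KO#10 replicate 1 of day 24 stood apart from the other KO libraries. The 12 neuron markers, all listed and none at 0 on that day, summed to 363 and 208 in WT, 1730 and 2114 in KO#2, 498 in KO#10 replicate 1 and 1444 in KO#10 replicate 2. Mesenchyme markers (6 of 7 listed) summed to 2443 and 2070 in WT, 2890 in KO#10 replicate 1 and 134 to 168 in the other 3 KO libraries. Endoderm and hepatic markers (5 of 7 listed) summed to 6469 and 6619 in WT and 1159 in KO#10 replicate 1, against 33, 36 and 89 in the others. In organoid bulk RNA, fewer cells of a type and less RNA per cell cannot be told apart. At day 12 neuron markers summed to 199 to 396, and mesenchyme markers to 27 to 49, over all lines.

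**Figure D1:**
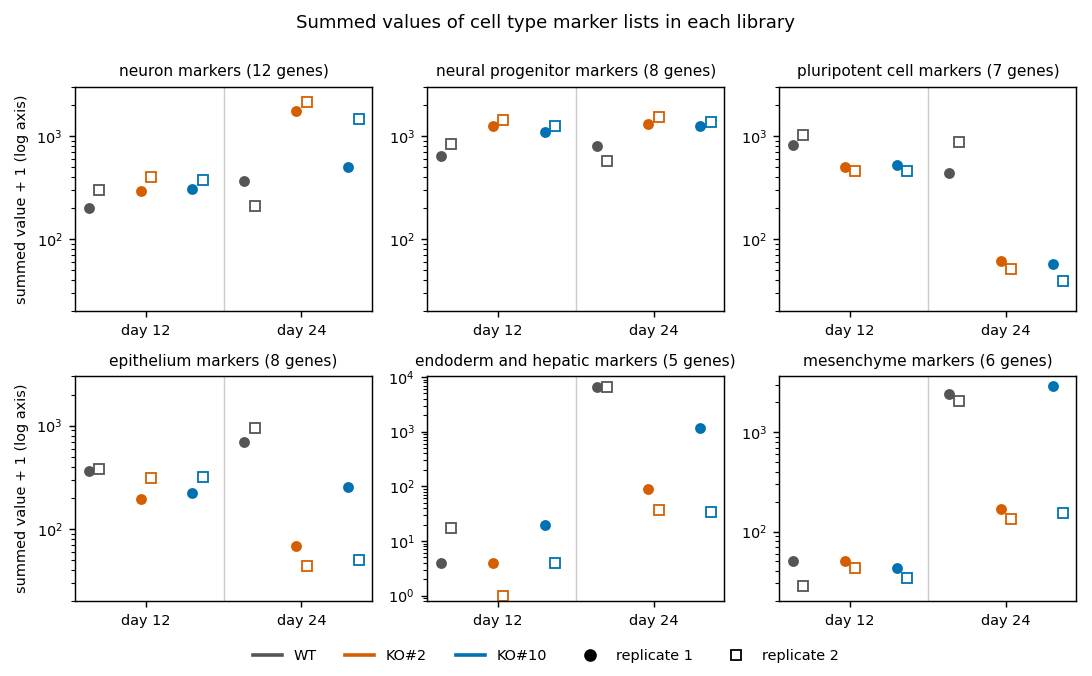
Summed deposited values plus 1 (log axis, range set per panel) of 6 marker lists in each library by day, for WT, KO#2 and KO#10. Filled circles are replicate 1 and open squares replicate 2. At day 24 the neuron sum of KO#10 replicate 1 (498) lay nearer to WT (208 and 363) than to the other KO libraries (1444 to 2114), and its mesenchyme sum (2890) was above both WT libraries.

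c-JUN is a subunit of AP-1, a transcription factor that binds TGANTCA. RefSeq promoter windows (GRCh38.p14, 250 bases before the gene start and 50 after it) were matched by symbol for 48 of the 57 genes. On both strands, TGANTCA occurred in 1 of the 48 windows (2.08%), that of *MBNL2*, and in 355 of 8907 windows (3.99%) of all deposited genes with one. The related element TGACGTCA, which does not overlap TGANTCA, occurred in 0 of the 48 and in 3.68% of all. TATAAA, searched on the gene's strand, was in 5 of 48 windows (10.4%), those of *ELAVL2*, *HNRNPAB*, *HNRNPC*, *HNRNPD* and *SRSF3*, against 3.90% of all. The median window of the 48 held 30 CG pairs and 63.8% G and C, compared with 26 pairs and 65.3% over all deposited genes. A match is a string in a window and not evidence of binding, and its absence says only that these letters were not there.

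The bases before the start of 3 genes are shown 5′ to 3′ on the gene's strand. *MBNL2* is shown for its 2 TGANTCA matches, in capitals, which begin 86 and 65 bases before the start (chr13:97141584-97141833, plus strand). *NOVA1* (chr14:26598034-26598283, minus strand, 23 CG pairs) and *MBNL3* (chrX:132490036-132490285, minus strand, 11 CG pairs) are shown as a gene called higher and a gene called lower in KO at day 24, with CG pairs in capitals. None of the 3 stretches overlaps a GENCODE 29 exon. The *MBNL2* stretch belongs to a RefSeq start upstream of the deposited interval of the gene, which begins at base 97221434.
MBNL2: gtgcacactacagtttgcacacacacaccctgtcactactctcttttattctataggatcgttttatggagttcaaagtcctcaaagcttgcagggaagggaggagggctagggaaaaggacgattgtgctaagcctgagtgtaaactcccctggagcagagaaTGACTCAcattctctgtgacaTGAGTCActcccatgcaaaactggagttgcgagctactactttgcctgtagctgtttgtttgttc
NOVA1: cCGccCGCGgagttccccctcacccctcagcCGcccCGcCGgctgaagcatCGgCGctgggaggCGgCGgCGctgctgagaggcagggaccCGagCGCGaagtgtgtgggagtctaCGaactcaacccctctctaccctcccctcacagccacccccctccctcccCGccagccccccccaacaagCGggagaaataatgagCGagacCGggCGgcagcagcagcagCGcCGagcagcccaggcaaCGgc
MBNL3: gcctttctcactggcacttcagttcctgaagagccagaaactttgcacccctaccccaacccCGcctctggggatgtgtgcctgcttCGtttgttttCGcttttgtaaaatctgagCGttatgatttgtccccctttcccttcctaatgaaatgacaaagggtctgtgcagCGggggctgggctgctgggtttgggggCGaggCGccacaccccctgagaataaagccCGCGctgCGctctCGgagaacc

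The first question was how KO-derived COs differed from WT at day 24. *ELAVL4*, *NOVA1*, *NOVA2* and *MSI1* were higher in KO than in WT, and *ESRP1*, *PTBP3* and *MBNL3* were lower. The call of *NOVA2* was lost under most alternatives, as given below. A gene was called where the adjusted *p* (limma, Benjamini-Hochberg over all genes tested) was under 0.05 and the change at least 2-fold, which is the fold the study used. These 7 calls were made among 55 genes that passed the filter on low values, where 8.01% of all 9289 genes tested were called (4.22% higher and 3.79% lower). The share of calls was thus near that of the background. Signs were less even: 44 of the 55 fold changes were positive, against 50.4% over all genes, with a median of 0.30 against 0.01. The groups did not overlap in 27 of 55 genes with KO higher, against 22.2% of all genes, and in 4 with KO lower, against 21.8%. *ELAVL2*, *ELAVL3*, *ELAVL4*, *NOVA2*, *CELF3* and *CELF5* passed the filter only through KO libraries, and *ESRP1* only through WT libraries. For these genes the filter favours the sign they had, so their part in both counts is not support.

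The number of calls moved with the libraries in the fit, and the fold changes moved less. Without KO#10 replicate 1, 11 genes were called higher and 3 lower (722 and 624 over all 9180 genes tested). That library was singled out after the values were seen, and it was the lowest in KO for many of these genes. Leaving it out raises their changes by construction, so a call gained there is not support. None was called higher without WT replicate 1, WT replicate 2, KO#2 replicate 1, KO#2 replicate 2 or KO#10 replicate 2, and none lower either, except *ESRP1* without KO#2 replicate 1. Without those libraries the counts over all genes also dropped, to between 1 and 145 higher and between 1 and 118 lower. Where 1 WT library was left, it was assumed to vary like the KO libraries, and a call lost there says nothing of stability. With a library left out, the log2 fold change was 1.64 to 2.37 for *ELAVL4*, 1.07 to 1.42 for *NOVA1*, 1.32 to 2.06 for *NOVA2* and 1.27 to 1.58 for *MSI1*. It was −1.40 to −1.08 for *PTBP3* and −1.12 to −0.86 for *MBNL3*.

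**Figure D2:**
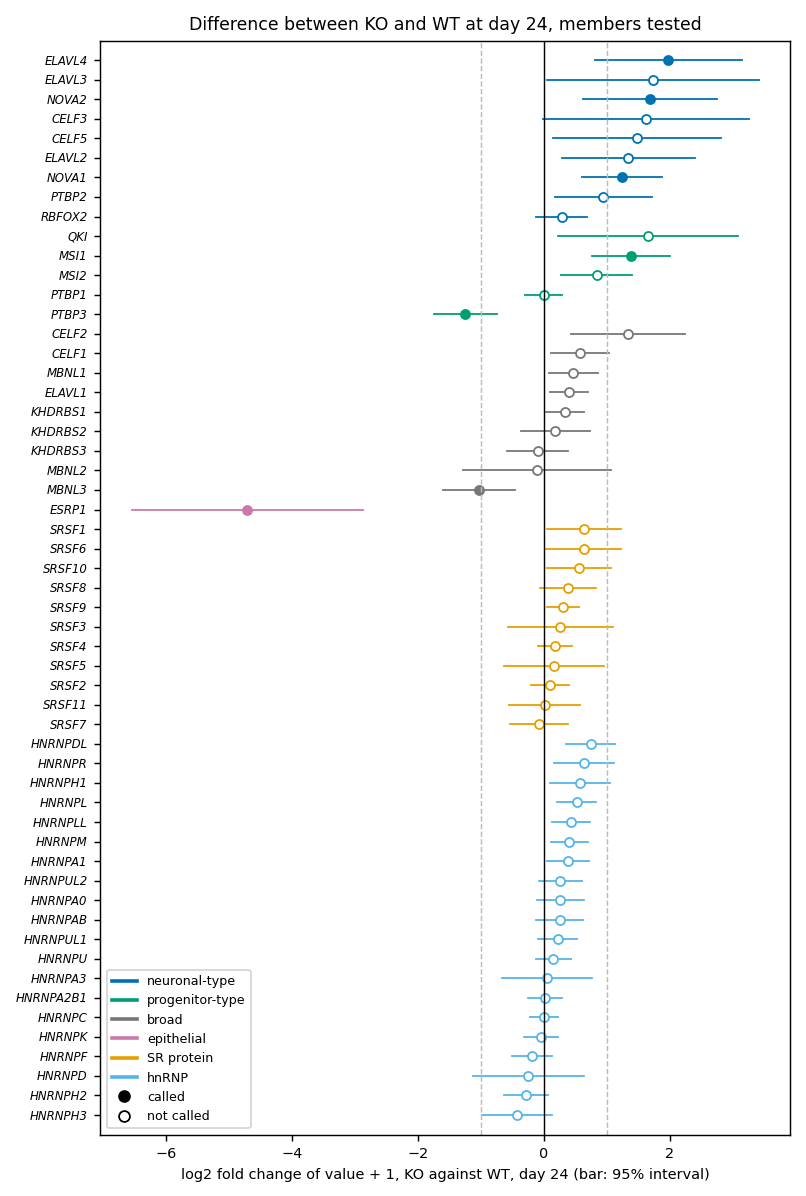
Log2 fold change of value + 1 in KO against WT at day 24 for the 55 genes tested, ordered by role and size. Bars are 95% intervals from limma, filled points were called and dashed lines mark a 2-fold change. All 9 neuronal-type genes tested lay to the right of 0, from 0.28 to 1.98, and *ESRP1* lay farthest to the left, at −4.71. *ELAVL2*, *ELAVL3*, *ELAVL4*, *NOVA2*, *CELF3* and *CELF5* passed the filter only through KO libraries, and *ESRP1* only through WT libraries.

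Among the neuronal-type genes, 9 of 11 were tested and all 9 had a positive fold change, with a median of 1.48. Of the 9, 3 were called higher (4.22% of all genes). Of these, *ELAVL2*, *ELAVL3*, *ELAVL4*, *NOVA2*, *CELF3* and *CELF5* were under 10 in both WT libraries. They passed the filter on low values only through KO libraries, which favours a positive sign, so the shared sign is not support. *NOVA1*, *PTBP2* and *RBFOX2* passed it in WT as well. *ELAVL4* (HuD, which stabilises neuronal mRNAs) is at chromosome 1, 50024029 to 50203772 (ENSG00000162374). It was at 7 and 4 in WT, against 27 and 37 in KO#2 and 10 and 32 in KO#10. All 4 KO libraries were above WT, with KO#10 replicate 1 closest to it (log2 fold change 1.98, SE 0.50, adjusted *p* = 0.0432). Without KO#10 replicate 1, the lowest KO library, the change was 2.37 (adjusted *p* = 0.00456). *ELAVL4* was not called with another KO library left out.

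*ELAVL2* (HuB) was at 8 and 9 in WT, against 34 and 30 in KO#2 and 10 and 27 in KO#10, and *ELAVL3* (HuC) at 7 and 6, 31 and 45, and 6 and 37 in the same order. *ELAVL2* did not overlap between the groups, and KO#10 replicate 1 put *ELAVL3* back into the WT range. Neither was called, with changes of 1.34 (95% interval 0.29 to 2.40, adjusted *p* = 0.0779) and 1.74 (0.06 to 3.42, adjusted *p* = 0.123). Both were called without KO#10 replicate 1, the lowest KO library in both, at 1.72 (adjusted *p* = 0.00330) and 2.35 (adjusted *p* = 0.00321). Neither was called with another KO library left out.

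NOVA1 and NOVA2 bind YCAY clusters and direct exon choice in neurons. *NOVA1* (ENSG00000139910, chromosome 14, 26443090 to 26598033) was at 13 and 10 in WT, against 36 and 36 in KO#2 and 20 and 25 in KO#10, for a change of 1.24 (SE 0.27, adjusted *p* = 0.0315). *NOVA2* (ENSG00000104967, chromosome 19, 45933734 to 45974044) was at 9 and 5 in WT, against 29 and 33 in KO#2 and 11 and 31 in KO#10. Its change was 1.69 (SE 0.45, adjusted *p* = 0.0489, limma). *NOVA2* was not called with a filter of 5, of 20 or none, or with a pseudocount of 0.1. Nor was it called with the replicate block, with no trend or with clones as separate groups. The groups did not overlap in either gene, and the range over all alternatives was 0.00439 to 0.275 for the adjusted *p* of *NOVA1* and 0.00515 to 0.333 for that of *NOVA2*.

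The brain-enriched CELF genes had low values. *CELF3* was at 8 and 3 in WT, against 24 and 32 in KO#2 and 5 and 23 in KO#10 (change 1.63, interval 0.00 to 3.26, adjusted *p* = 0.133). *CELF5* was at 4 and 2, 8 and 17, and 4 and 16 in that order (change 1.48, interval 0.15 to 2.81, adjusted *p* = 0.104). In both genes KO#10 replicate 1 lay within the range of WT or level with it, and both were called without that library. With another KO library left out neither was called. *CELF4* did not pass the filter on low values, with 1 and 1 in WT, against 13 and 8 in KO#2 and 2 and 6 in KO#10.

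*PTBP2* (nPTB, the neuronal relative of PTBP1) was at 149 and 80 in WT, against 279 and 220 in KO#2 and 142 and 229 in KO#10. The groups overlapped through WT replicate 1 and KO#10 replicate 1, and the change of 0.95 (interval 0.18 to 1.71) was not called (adjusted *p* = 0.0840). Without KO#10 replicate 1, the lowest KO library, it was 1.14 and was called (adjusted *p* = 0.0295). *PTBP2* was not called with another KO library left out. *RBFOX2*, which is used well beyond neurons, was at 49 and 47 in WT and between 48 and 72 in KO (change 0.28, interval −0.13 to 0.70, adjusted *p* = 0.269). *RBFOX1* stayed at 5 or less in every library and was not tested.

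The neuronal-type genes moved together with the neuron markers. Of those, 4 of 11 tested were called higher and 0 lower at day 24 (4.22% and 3.79% of all genes). KO#10 replicate 1, with the lowest neuron marker sum of the KO libraries, also had the lowest KO value of *ELAVL2*, *ELAVL3*, *ELAVL4*, *NOVA1*, *NOVA2*, *CELF3*, *CELF4*, *CELF5* and *PTBP2*. It did not have that of *RBFOX1* (5, the highest) or *RBFOX2* (61). Among the neuron markers *NEFM* (46, the highest), *NEFL* (25) and *GAP43* (56) were not lowest there either, while *MAP2* was at 95 against 668 to 1009 and *STMN2* at 66 against 153 to 356 in the other KO libraries. The part of the share of neurons in these differences was not tested. Over the 9 neuronal-type genes tested, 4 had all KO libraries above WT, and 8 when KO#10 replicate 1 was left out. The step to 8 comes from leaving out the lowest KO library of these genes, and several of the 9 passed the filter only through KO. Over all genes the corresponding shares were 22.2% and 29.1%.

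**Figure D3:**
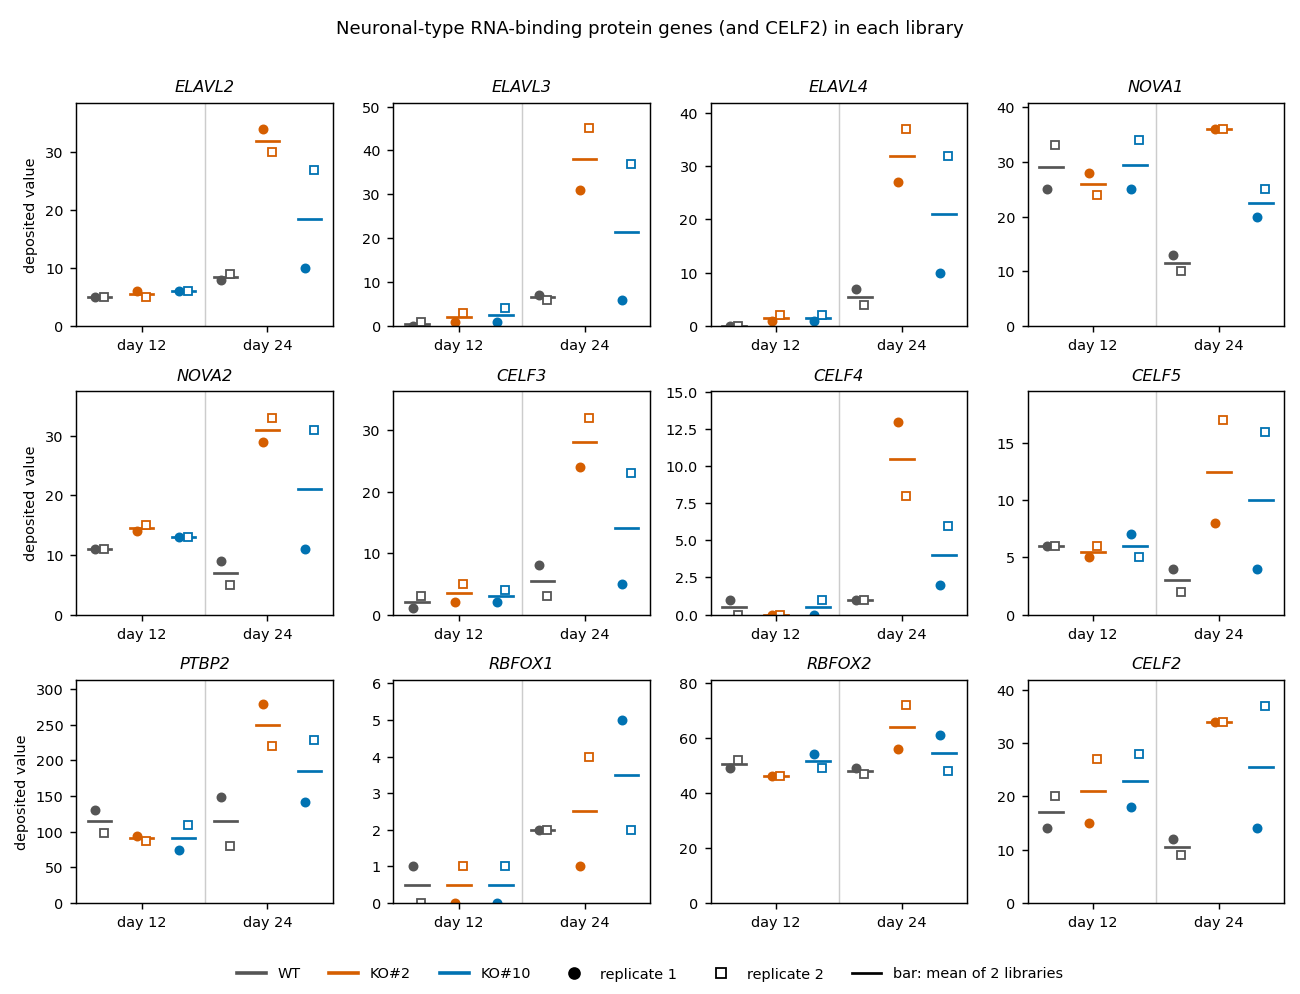
Deposited values in each library (y axis, own range per panel from 0) at day 12 and day 24 for the 11 neuronal-type genes and *CELF2*. Filled circles are replicate 1, open squares replicate 2 and bars the mean of 2 libraries. At day 24 KO#2 lay above WT in nearly all panels, as for *ELAVL4* (27 and 37 against 7 and 4), and the KO#10 libraries were far apart (10 and 32).

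In the progenitor-type group *MSI1* was higher and *PTBP3* lower in KO than in WT at day 24. *MSI1* (Musashi-1, ENSG00000135097, chromosome 12, 120341330 to 120369164) was at 44 and 38 in WT, against 112 and 139 in KO#2 and 72 and 124 in KO#10. Every KO library was above WT, for a change of 1.39 (SE 0.26, adjusted *p* = 0.0244, 0.00169 to 0.254 over the alternatives). Its relative *MSI2* was at 32 and 26 in WT, compared with 76, 48, 45 and 46 in KO. The groups did not overlap, and the change of 0.84 (interval 0.28 to 1.40) was not called (adjusted *p* = 0.0545).

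*PTBP3* (ENSG00000119314, chromosome 9, 112217716 to 112333664), a PTB relative best known from blood cells, was at 23 and 29 in WT, against 9 and 10 in KO#2 and 14 and 9 in KO#10. The change was −1.24 (SE 0.21, adjusted *p* = 0.0218). *PTBP1* did not differ in level to this precision, with 69 and 80 in WT and 70 to 78 in KO (change 0.00, interval −0.29 to 0.30, adjusted *p* = 0.990). The 3 PTB paralogs therefore had a negative, a flat and a positive fold change in the same libraries, of which that of *PTBP3* was called.

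*QKI* (Quaking, used by progenitors and glia) was at 146 and 120 in WT, against 250 and 750 in KO#2 and 200 and 821 in KO#10. All KO libraries were above WT, and the replicates of each clone differed more than the lower of them did from WT. The change of 1.66 (interval 0.23 to 3.08) was not called (adjusted *p* = 0.0963), and it was called without KO#10 replicate 1 (2.01, adjusted *p* = 0.0363). That library held the lowest KO value, and *QKI* was not called with another KO library left out. Neural progenitor markers summed to 798 and 572 in WT and 1236 to 1542 in KO. Of the 8 tested, 3 were called higher and 0 lower (4.22% and 3.79% of all genes). *SOX1*, 1 of the 3, passed the filter only through KO libraries. The part of these markers in the difference of *MSI1* was not tested.

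*ESRP1* (ENSG00000104413, chromosome 8, 94641074 to 94707466) was at 18 and 50 in WT and was listed at 0 in both KO#2 libraries and in KO#10 replicate 2, with 1 in KO#10 replicate 1. *ESRP1* passed the filter only through WT libraries. The log2 fold change of −4.71 (SE 0.78, adjusted *p* = 0.0206) depends on the pseudocount. With a pseudocount of 0.1 the change was −7.37 and was no longer called (adjusted *p* = 0.0935). Epithelium markers (8 of 9 listed) moved with it, with sums of 700 and 939 in WT and 43 to 255 in KO. Of these, 8 of 8 tested were called lower (3.79% of all genes). Among them *CLDN7* was at 0 in KO#2 replicate 2, and the others were above 0 in every library of that day. Pluripotent cell markers moved with it too, with sums of 439 and 882 in WT and 38 to 60 in KO, and 6 of 6 tested were called lower. *PERP*, *EPCAM*, *CLDN6*, *CDH1* and *CLDN7* of the first list passed the filter only through WT libraries. So did *L1TD1*, *POU5F1* and *TDGF1* of the second. That favours a negative sign, so the shared sign is not support. KO#10 replicate 1 had the highest epithelium sum in KO (255), a pluripotent sum of 56 and *ESRP1* at 1. The part of these cells in the difference was not tested.

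The broad group held 1 call among 9 genes tested, where 8.01% of all genes were called. *MBNL3* (ENSG00000076770, chromosome X, 132369317 to 132489968) was at 20 and 18 in WT, against 6 and 9 in KO#2 and 10 and 11 in KO#10 (change −1.03, SE 0.24, adjusted *p* = 0.0374). Its paralog *MBNL1*, at 14 and 13 in WT and 16 to 22 in KO, had a positive fold change of 0.47 (adjusted *p* = 0.0861), and *MBNL2* was at 10 and 6 in WT and 3 to 13 in KO (change −0.10, interval −1.28 to 1.07). *MBNL3* was thus the MBNL gene with a call, and the differences between the paralogs were not tested.

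*CELF2*, which is broad but abundant in brain, was at 12 and 9 in WT, against 34 and 34 in KO#2 and 14 and 37 in KO#10 (change 1.34, interval 0.43 to 2.25, adjusted *p* = 0.0565). It was called without KO#10 replicate 1, the lowest KO library (1.66, adjusted *p* = 0.00368), and not with another KO library left out. *CELF1* was at 39 and 49 in WT and 53 to 78 in KO (change 0.58, adjusted *p* = 0.0834), and *ELAVL1* (HuR, the ubiquitous Hu protein) at 63 and 62 in WT and 75 to 92 in KO (change 0.40, adjusted *p* = 0.0692). Neither overlapped between the groups and neither was called.

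None of the KHDRBS genes was called. *KHDRBS1* (Sam68) was at 109 and 122 in WT and 139 to 163 in KO, with every KO library above WT (change 0.33, interval 0.03 to 0.63, adjusted *p* = 0.108). *KHDRBS2* was at 10 and 7 in WT and 8 to 12 in KO (change 0.18, interval −0.37 to 0.73), and *KHDRBS3* at 13 and 19 in WT and 12 to 17 in KO (change −0.10, interval −0.58 to 0.38). The intervals of *KHDRBS2* and *KHDRBS3* span 0, and the direction of both turned without WT replicate 2.

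**Figure D4:**
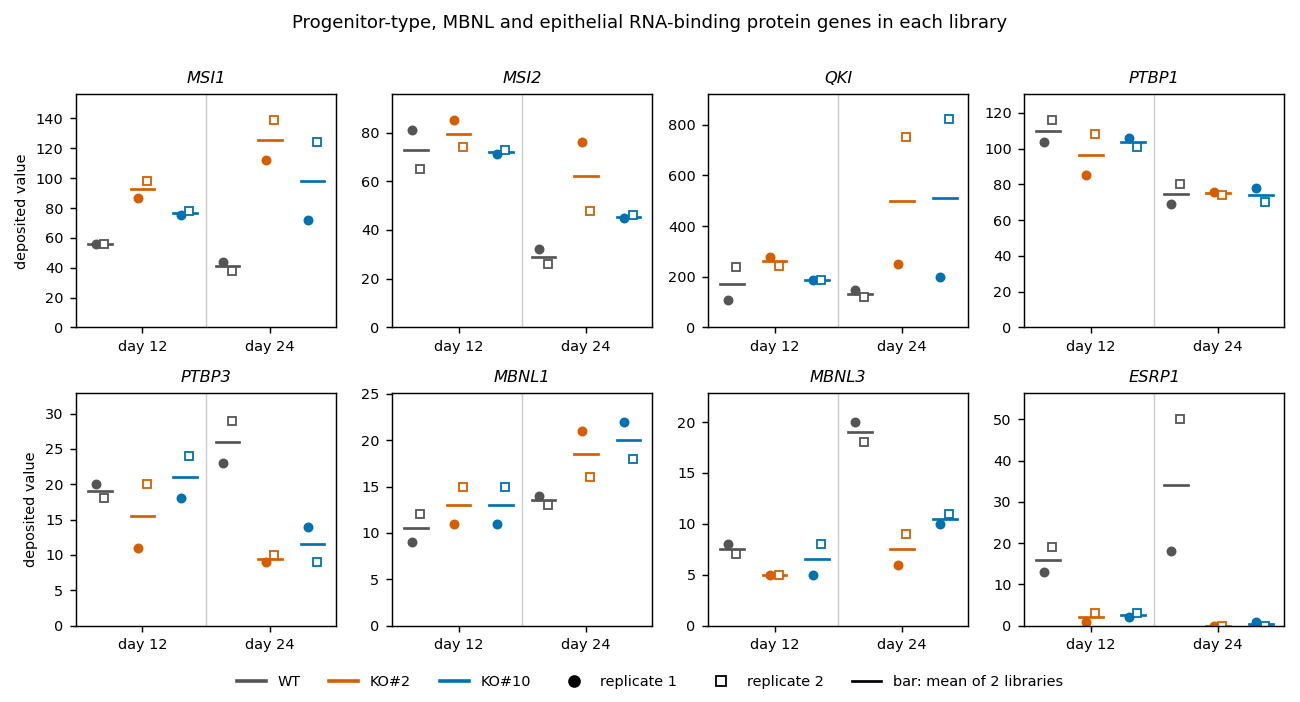
Deposited values in each library (y axis, own range per panel from 0) at day 12 and day 24 for 5 progenitor-type genes, *MBNL1*, *MBNL3* and *ESRP1*. Filled circles are replicate 1, open squares replicate 2 and bars the mean of 2 libraries. *PTBP3* and *MBNL3* lay lower in all KO libraries at day 24 (9 to 14 against 23 and 29, and 6 to 11 against 20 and 18), and *PTBP1* lay at 69 to 80 throughout that day.

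At any fold, 6 of the 55 genes were past an adjusted *p* of 0.05 higher in KO and 3 lower, against 8.16% and 6.48% of all genes, and the 2 beyond those called were *HNRNPDL* and *HNRNPL*. No hnRNP gene was called at day 24. The fold changes of the 20 genes ran from −0.42 to 0.74 with a median of 0.24, and 15 were positive. In 10 of the 20 every KO library lay above WT (22.2% of all genes) and in 1, *HNRNPH2*, every KO library lay below (21.8% of all). *HNRNPDL*, an hnRNP D relative that regulates its own exons, had the largest change. It was at 128 and 109 in WT, against 243 and 186 in KO#2 and 193 and 178 in KO#10 (0.74, SE 0.16, adjusted *p* = 0.0327), under the 2-fold limit. *HNRNPR*, which carries mRNA into axons, was at 279 and 167 in WT and 318 to 356 in KO (0.64, adjusted *p* = 0.0686), and *HNRNPH1* at 198 and 162 in WT and 228 to 354 in KO (0.58, adjusted *p* = 0.0852). *HNRNPL* also had an adjusted *p* under 0.05 below the 2-fold limit, with 128 and 142 in WT and 172 to 206 in KO (0.52, adjusted *p* = 0.0413).

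The top of the scale limits what can be read from some hnRNP genes. *HNRNPC* was at 1200 in all but 2 libraries, which had 1006 and 1202. *HNRNPK* held only the values 747, 900 and 1006, and *HNRNPA1* reached the highest value of all, 5585, in KO#10 replicate 2 of day 12 and lay between 750 and 1204 elsewhere. These genes sit on levels shared by many genes, where a difference is a step between levels. *HNRNPA1* and *HNRNPC* also have processed copies in the genome, and how the authors' counting treated their reads is not known.

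No SR protein gene was called either. The 11 fold changes lay between −0.07 and 0.64 with a median of 0.26, and 10 were positive. *SRSF1* (ASF/SF2) was at 248 and 300 in WT and 300 to 549 in KO (0.64, interval 0.04 to 1.23, adjusted *p* = 0.113). *SRSF6* was at 60 and 42 in WT and 64 to 105 in KO (0.63, adjusted *p* = 0.117), and *SRSF10*, a splicing repressor when dephosphorylated, at 74 and 76 in WT and 96 to 156 in KO (0.56, adjusted *p* = 0.106). *SRSF6* and *SRSF10* were among 5 of 11 SR genes whose groups did not overlap, all higher in KO, against 22.2% of all genes tested.

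Further RNA-binding genes were read from lists beyond the 57. Over all genes tested at day 24, 4.22% were called higher and 3.79% lower. Core spliceosome genes (53 of 55 tested) had 0 calls in either direction at day 24, a median of −0.16, and 15 positive against 38 negative fold changes. Other splicing regulators (49 of 56 tested) had 2 called higher and 2 lower, with a median of 0.19. *TIA1*, which promotes inclusion of exons with weak splice sites, was at 70 and 44 in WT and 116 to 198 in KO (1.46, adjusted *p* = 0.0233), and *RBM5* was at 36 and 28 in WT and 57 to 87 in KO (1.09, adjusted *p* = 0.0242). *RBPMS* (52 and 96 in WT, 8 to 21 in KO, −2.44, adjusted *p* = 0.0201) and *RBPMS2* (15 and 33 in WT, 4 to 6 in KO, −2.03, adjusted *p* = 0.0206) were lower in KO. Regulators of mRNA translation and decay (31 of 36 tested) had 0 called higher and 4 lower, *LIN28A* (−3.73), *TRIM71* (−2.06), *LIN28B* (−1.56) and *YBX3* (−1.27). *LIN28A* is also on the list of pluripotent cell markers set beside *ESRP1* above.

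At day 12 the same comparison called 0 of 48 genes tested (limma), where 0.09% of all 8885 genes were called (0.0225% higher and 0.0675% lower, the same at any fold). In the fit with same-numbered libraries as pairs, 36 of all genes were called higher and 35 lower, with *ESRP1* the only one of the 48. At an unadjusted *p* under 0.05 there were 5, *ESRP1*, *MSI1*, *SRSF3*, *HNRNPR* and *SRSF5*, against 11% of all genes. The fold changes were centred on 0, with 21 positive (49.4% of all genes), 26 negative, *HNRNPK* at 0 and a median of −0.02. In 5 genes every KO library was above WT (8.23% of all genes) and in 3 every KO library was below (8.34% of all).

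*ESRP1* was already low in KO at day 12, with 13 and 19 in WT, against 1 and 3 in KO#2 and 2 and 3 in KO#10. The change of −2.42 (SE 0.47) was not called (adjusted *p* = 0.128). It was called once libraries of the same replicate number were fitted as pairs, as they deviated together on this day (adjusted *p* = 0.0255 in the blocked fit), and 0.0255 to 0.294 was the range over the alternatives. Epithelium markers summed to 360 and 376 in WT and 195 to 317 in KO on that day, with 0 of 7 tested called. Pluripotent cell markers summed to 814 and 1032 in WT and 460 to 522 in KO, with 3 of 6 tested called lower (0.0675% of all genes). *ESRP1* and, of these markers, *TDGF1* passed the filter of day 12 only through WT libraries. The part of the markers in the difference was not tested.

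At day 12 *MSI1* was at 56 and 56 in WT, against 87 and 98 in KO#2 and 75 and 78 in KO#10 (change 0.58, SE 0.15, adjusted *p* = 0.212). *SRSF3* was at 664 and 392 in WT, compared with 288, 288, 288 and 352 in KO (−0.75, adjusted *p* = 0.263). The groups did not overlap in either gene. *NOVA2*, at 11 and 11 in WT and 13 to 15 in KO, also stayed apart (0.30, adjusted *p* = 0.515), and *NOVA1* overlapped, with 25 and 33 in WT and 24 to 34 in KO (−0.06, adjusted *p* = 0.942). *ELAVL3*, *ELAVL4*, *CELF3* and *CELF4* were at 5 or less in every day 12 library and were not tested.

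Whether the KO difference changed between the days was tested as an interaction over all 12 libraries. It was called for 0 of 55 genes (limma), where 1.31% of all 9952 genes were called (0.452% higher and 0.854% lower). At any fold these shares were 0.502% and 0.854%, again with 0 of the 55. At an unadjusted *p* under 0.05 there were 18, against 21.5% of all genes, and 42 of 55 values were positive, against 51.6%. All 9 neuronal-type genes tested had a positive value, with a median of 1.17, although that of *ELAVL4* turned from 0.69 to −1.78 with a pseudocount of 0.1. *ELAVL2*, *ELAVL3*, *ELAVL4*, *CELF3* and *CELF5* reached 10 only in KO libraries of day 24. They entered the fit through that group alone, which favours a positive value, so the shared sign is not support. The smallest adjusted *p* belonged to *HNRNPL* (0.78, adjusted *p* = 0.0663) and *NOVA1* (1.31, adjusted *p* = 0.0697), followed by *ESRP1* (−2.29, adjusted *p* = 0.0980) and *PTBP2* (1.27, adjusted *p* = 0.108). Without KO#10 replicate 1 of day 24, 7 were called higher (*CELF2*, *CELF5*, *ELAVL2*, *MSI1*, *NOVA1*, *NOVA2* and *PTBP2*) and 2 lower (*ESRP1* and *PTBP3*), and over all 9896 genes 419 and 497 were. That library held the lowest KO value of day 24 of all 7, so leaving it out raises their values. It also held the highest KO value of day 24 of *ESRP1* (1, against 0) and *PTBP3* (14, against 9 to 10), so leaving it out lowers theirs. None of these gained calls is support.

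In WT, 3 genes rose and 3 fell from day 12 to day 24, where 15.2% of all genes were called (7.23% higher and 7.94% lower). *ELAVL3* rose from 0 and 1 to 7 and 6 (2.40, adjusted *p* = 0.0340), and *MBNL3* from 8 and 7 to 20 and 18 (1.24, adjusted *p* = 0.00835). *ELAVL4* was listed at 0 in both WT libraries of day 12 and was at 7 and 4 at day 24 (adjusted *p* = 0.00433), for which no fold is given. *MSI2* fell from 81 and 65 to 32 and 26 (−1.30, adjusted *p* = 0.00259), *NOVA1* from 25 and 33 to 13 and 10 (−1.26, adjusted *p* = 0.00687), and *SRSF10* from 158 and 146 to 74 and 76 (−1.01, adjusted *p* = 0.00763). In WT the neuronal-type genes thus did not move as a block, with 4 positive and 5 negative changes among the 9 tested. *ELAVL3* and *ELAVL4* stayed under 10 in every WT library and passed the filter only through KO libraries of day 24. In the fit of the WT libraries alone, *MBNL3* was the only gene of the 57 called higher. Of all 55 genes, 21 had a positive change, against 50.8% over all genes. The call of *ELAVL3* was lost without any 1 of the 4 WT libraries, that of *MBNL3* without replicate 1 of day 24, that of *NOVA1* without replicate 2 of day 24, and that of *SRSF10* without replicate 1 of either day. *ELAVL4* and *MSI2* stayed called in each case. The lone library of a group was assumed there to vary like the other groups.

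In KO, 5 genes rose and 1 fell, where 11.5% of all genes were called (5.89% higher and 5.59% lower). All 5 that rose were neuronal-type genes. Neuron markers moved with them, with 9 of 11 tested called higher and a median of 2.26, and their part was not tested. *ELAVL4* went from 1 to 2 at day 12 to 10 to 37 at day 24 (3.35, SE 0.38, adjusted *p* = 7.66e-05), *ELAVL3* from 1 to 4 to 6 to 45 (3.06, adjusted *p* = 0.00123), and *ELAVL2* from 5 to 6 to 10 to 34 (1.84, adjusted *p* = 6.66e-04). *CELF3* rose by 2.20 (adjusted *p* = 0.00526), and *PTBP2*, at 74 to 109 on day 12 and 142 to 279 on day 24, by 1.22 (adjusted *p* = 0.00180). All 9 neuronal-type genes tested had a positive change, as had 33 of the 55 genes against 50.5% over all, and these 5 stayed called whichever library was left out. *ELAVL2*, *ELAVL3*, *ELAVL4*, *CELF3* and *CELF5* passed the filter only through KO libraries of day 24, which favours a rise in KO. *NOVA1* was level in KO, at 24 to 34 and then 20 to 36 (0.05, adjusted *p* = 0.873). *ESRP1* fell from 1 to 3 down to 0 or 1 (−1.40, adjusted *p* = 0.0170), values so low that the size depends on the pseudocount.

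At any fold, 4 genes were higher and 9 lower between the days in WT (13.6% and 15.8% of all genes), and 10 higher and 4 lower in KO (18.8% and 19%). *PTBP1* fell in both genotypes, from 104 and 116 to 69 and 80 in WT (−0.56, adjusted *p* = 0.0195) and from 85 to 108 down to 70 to 78 in KO (−0.41, adjusted *p* = 0.0112). *ELAVL1* (−0.71, adjusted *p* = 0.00528) and *CELF1* (−0.80, adjusted *p* = 0.0130) fell in WT, and in KO their changes were −0.17 (adjusted *p* = 0.213) and −0.34 (adjusted *p* = 0.0777). *PTBP3* was at 18 and 20 and then 23 and 29 in WT (0.43, adjusted *p* = 0.300) and at 11 to 24 and then 9 to 14 in KO (−0.71, adjusted *p* = 0.0199). The difference between the genotypes in these changes is the interaction given above, which was not called for any of them.

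**Figure D5:**
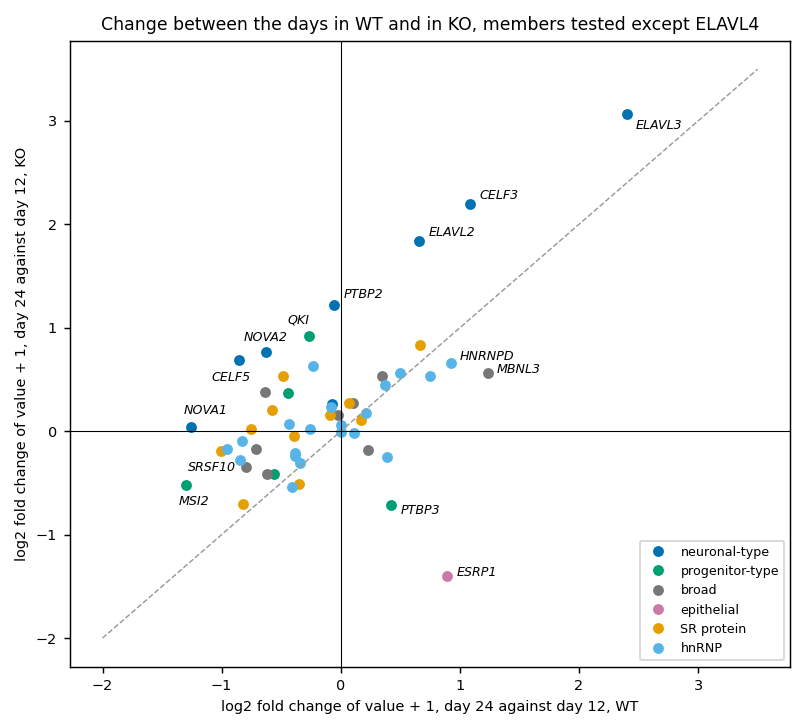
Log2 fold change of value + 1 from day 12 to day 24 in WT (x axis) and in KO (y axis) for the genes tested, coloured by role, without *ELAVL4*, which was listed at 0 in WT at day 12. The dashed line marks equal change. *ELAVL2* (0.66 in WT and 1.84 in KO), *CELF3* (1.08 and 2.20), *PTBP2* (−0.05 and 1.22) and *NOVA1* (−1.26 and 0.05) lay above the line, and *ESRP1* (0.90 and −1.40) and *PTBP3* (0.43 and −0.71) below it.

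The clones were also set against WT one at a time at day 24, with the same 2 WT libraries in both comparisons. In KO#2, 5 genes were called higher than in WT and 3 lower, where 9.03% of all genes were called (4.76% higher and 4.27% lower). At any fold there were 6 and 3, against 6.63% and 6.07%, and 45 of 55 changes were positive, against 49.4% of all. *ELAVL2*, *ELAVL3*, *ELAVL4*, *NOVA2*, *CELF3* and *CELF5* passed the filter only through KO libraries here too, which favours a positive sign. Called higher (limma) were *NOVA1* (1.58, adjusted *p* = 0.0301), *MSI1* (1.59, adjusted *p* = 0.0366), *ELAVL4* (2.37, adjusted *p* = 0.0471), *ELAVL2* (1.80, adjusted *p* = 0.0491) and *MSI2* (1.04, adjusted *p* = 0.0491). Called lower were *ESRP1*, listed at 0 in KO#2 (adjusted *p* = 0.0371), *PTBP3* (−1.36, adjusted *p* = 0.0371) and *MBNL3* (−1.26, adjusted *p* = 0.0371). With a library of KO#2 or of WT left out none of these was called, and over all genes 0 higher and 0 to 2 lower were, so that the lost calls say nothing of stability. The lone library was assumed to vary like the other groups, and the changes then ran from 1.40 to 1.75 for *NOVA1* and from 1.43 to 1.74 for *MSI1*.

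In KO#10, 0 of 55 genes were called (limma), where 0.28% of all genes were, and 17 had an unadjusted *p* under 0.05 against 24.3% of all. The values in KO#10 were 0.91 for *NOVA1* (adjusted *p* = 0.0965), 1.19 for *MSI1* (adjusted *p* = 0.106), 1.59 for *ELAVL4* (adjusted *p* = 0.166), −1.13 for *PTBP3* (adjusted *p* = 0.0999) and −0.80 for *MBNL3* (adjusted *p* = 0.133). The test of KO#2 against KO#10 called 0 of 55 genes and 0% of all genes, and 1 of the 55, *NOVA1*, had an unadjusted *p* under 0.05 (0.66 higher in KO#2, adjusted *p* = 0.825), against 5.16% of all. All 9 neuronal-type genes tested had a higher mean in KO#2, by 0.23 to 1.26 with a median of 0.70, and none of these differences was called. All 11 neuron markers tested were also higher in KO#2, with a median of 1.02. KO#10 replicate 2 was near KO#2 in *ELAVL4* (32, against 27 and 37) and *ELAVL3* (37, against 31 and 45), and KO#10 replicate 1 was lower (10 and 6).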

How the data were processed

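RNA of pooled COs was sequenced after ribosomal RNA depletion with a strand-specific protocol. The authors deposited 1 whole-number score per gene and library. The submitters' processing notes name bcl2fastq, Bowtie2, RSEM and the mouse build mm10, although identifiers and coordinates are human, and they are printed as deposited. The normalization and the use of strand in counting are not given in the sources used here.

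A gene entered a fit when 2 or more of its libraries held 10 or more. Fits were made on log2(value + 1) with lmFit and eBayes with trend (limma 3.58.1, R 4.3.3), adjusted by Benjamini-Hochberg within each comparison, and called where the adjusted *p* was below 0.05 with a 2-fold or larger change. Fold changes on this scale understate those of low genes. A log2 change within 1e-09 of 0 counted as neither positive nor negative. An exact permutation test of 2 against 4 libraries cannot go below 0.0667 and was not used. KO and each clone were compared with WT within a day, and days and the interaction were fitted over all 12 libraries.

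The genes, roles and lists were chosen with earlier results of these data known. Named were genes called between KO and WT or in the interaction, all genes outside the HNRNP and SRSF families, the 3 largest changes of each of these families, and called genes of other lists. *SRSF3*, *SRSF5*, *HNRNPL*, *HNRNPH2*, the hnRNP genes at the top of the scale and genes named for the change between days were chosen after their values were seen.

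Same-numbered libraries shared their deviations from the group means at day 12 (r of 0.459, 0.429 and 0.598 across genes), so that the numbers were taken to pair them. At day 24 r was 0.212, −0.106 and 0.346, and between the days 0.164, 0.241 and 0.0387, and there they were not. The main fits, that of day 12 included, carried no term for the pairs, and the paired fit was an alternative. The replicate numbers come from the labels. No libraries were duplicates: replicates had identical values in 10.1% to 12.5% of genes. Alternatives were other filters (5, 20, none), a pseudocount of 0.1, the block, no trend, centring, clones as separate groups, all 12 libraries or only those of a genotype, any fold, and each library left out. Promoters came from RefSeq. Tables and figures used Python 3.11.15, numpy 2.4.6, pandas 2.3.3 and matplotlib 3.10.9.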

Additional observations from a re-analysis of the deposited data

Results flagged for a closer look

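In 103 groups of 4 KO libraries, 1 per gene and day, the highest or lowest library was compared with its nearest neighbour, and 13 had a gap above Dixon's 95% critical value for 4 samples. Chance alone gives about 1 in 20. KO#10 replicate 1 of day 24 was the far library for *NOVA2* (11, against 29 to 33), *CELF2* (14, against 34 to 37), *HNRNPL* (172, against 200 to 206) and *ESRP1* (1, against 0 in the others). In *NOVA2* and *CELF2* that library was near the WT values of 9 and 5, and 12 and 9.

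KO#2 replicate 1 of day 24 was the far library for *MSI2* (76, against 45 to 48), *SRSF10* (156, against 96 to 102), *HNRNPD* (128, against 279 to 318), *SRSF8* (12, against 11 in the others) and *HNRNPC* (1202, against 1200). KO#10 replicate 2 of day 24 was far for *KHDRBS1* (163, against 139 to 142) and *HNRNPK* (1006, against 900), the latter a step between shared levels. At day 12 the far values were *SRSF3* in KO#10 replicate 2 (352, against 288) and *HNRNPC* in KO#2 replicate 1 (1006, against 1200). The flags of *ESRP1*, *SRSF8* and *HNRNPC* at day 24 are steps of 1 or 2 units.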

How the results depend on the processing

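Depth is unknown, and 2 WT libraries limit every comparison with WT. Centring moved no value, since all libraries share 1 median. For KO against WT at day 24, 2 genes were called higher with no filter, 2 with the replicate block (*NOVA1* and *MSI1*) and 8 with all 12 libraries in 1 fit, and 1 lower with a filter of 20. Leaving out a library gave 0 to 11 higher and 0 to 3 lower. At day 12, 1 was called lower (*ESRP1*) with the block and 1 with no trend. For the interaction, leaving out a library gave 0 to 7 higher and 0 to 2 lower. Between the days, WT had 1 called higher with its own libraries alone and 1 to 2 with a library left out, and 9 lower at any fold. KO had 0 lower with a filter of 20 and 0 with its own libraries, 1 to 2 lower and 5 to 8 higher with a library left out, and 10 higher and 4 lower at any fold. KO#2 had 3 higher with a filter of 5, 3 with no filter, 3 with a pseudocount of 0.1, 2 with the block, 2 with no trend and 11 with all 12 libraries, 1 lower with a filter of 20 and 1 with the block, and 0 either way with a library left out. KO#10 had 1 higher and 2 lower with all 12 libraries. At day 24 same-numbered libraries shared their deviations less than at day 12 (r of 0.212, −0.106 and 0.346), though some genes divided by replicate number, as given below. The block changed no other count among the 57 genes by over 1.5 times. Over all genes it moved the calls higher and lower from 2 and 6 to 36 and 35 at day 12, from 45 and 85 to 129 and 186 for the interaction, from 442 and 397 to 266 and 257 for KO#2 and from 13 and 13 to 0 and 0 for KO#10. Signs turned for genes that were not called, with a library left out: at day 24 *PTBP1* (−0.10 to 0.11), *KHDRBS2* (−0.047 to 0.41), *KHDRBS3* (−0.35 to 0.16) and *MBNL2* (−0.43 to 0.24), and at day 12 *PTBP3* (−0.25 to 0.11) and *NOVA1* (−0.25 to 0.13). The interaction of *ELAVL4* turned from 0.69 to −1.78 with a pseudocount of 0.1, which moves its WT values of 0 at day 12. Of 914 values of single genes under an alternative, 789 kept direction and call, 97 lost the call, 18 gained one and 10 turned sign. The cause of these shifts was not tested. The 789 include results that were not called in the main fit and stayed so, and the centred fits, which moved no value. They are therefore no measure of how stable the calls were.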

Other observations

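Some of the genes divided the libraries by replicate number and not by line, a pattern chosen after the values were seen. At day 12 *SRSF11* was at 172, 121 and 164 in replicate 1 of WT, KO#2 and KO#10 and at 356, 356 and 396 in replicate 2. *HNRNPD*, an AU-rich element binding hnRNP, was at 106, 83 and 97 in replicate 1 and at 220, 236 and 302 in replicate 2. *HNRNPU*, a nuclear scaffold protein gene, was at 396, 473 and 370 and then at 604, 552 and 604. In all 3 genes the replicates did not overlap, whatever the line.

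At day 24 *SRSF11* was again lower in replicate 1 (109, 122 and 120) than in replicate 2 (178, 164 and 164). *SRSF5* went the other way, with 136, 125 and 128 in replicate 1 and 62, 84 and 84 in replicate 2, and *SRSF3* was at 549, 469 and 600 and then at 242, 334 and 392. The fold changes of *SRSF11*, *SRSF5* and *HNRNPD* between KO and WT at day 24 were 0.02 (95% interval −0.55 to 0.58), 0.16 (−0.63 to 0.96) and −0.25 (−1.13 to 0.63).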
